A study of Mus musculus with 8 samples.

Results

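Genes for potassium channel subunits and for the related HCN channels were examined in ribosome-bound RNA of mouse Müller cells. The set held every gene of the deposited table whose symbol begins with Kcn and a letter, or with Hcn and a digit, apart from Kcnj10. These were 44 of 12339 genes, of which 43 were annotated as protein-coding and 1, Kcnmb4os2, as an antisense RNA. The GENCODE annotation holds 97 protein-coding genes with such symbols, and the other 54, among them Kcnq1, Kcnj2, Kcnj13 and Kcnj16, were not analysed here. The retinal samples were 4 in which Nrf2 was conditionally deleted in Müller cells (Nrf2 cKO) and 4 wild-type samples (WT), all with oxygen-induced retinopathy (OIR) at postnatal day 14. In this model pups breathe high oxygen and are then returned to room air, which leaves the inner retina short of oxygen. In the RiboTag method cells that express Cre make a tagged ribosomal protein, so that their ribosomes can be pulled down with the RNA they carry. The Cre driver, the deleted part of Nrf2, the sex, and whether a library came from 1 animal or a pool are not given in the sources used here, nor is whether WT carried Cre. The p-values of fits without the replicate number therefore measure the spread between these libraries. In fits with the replicate number as a block, they measure the spread of the differences between libraries of equal number.

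Potassium channels set the resting potential of cells and end their electrical signals. Each channel is built from pore-forming subunits, and many also bind auxiliary subunits that alter gating, trafficking or drug sensitivity. Müller cells clear potassium released by active neurons, mainly through the inward rectifier encoded by Kcnj10. Photoreceptors carry their own set, which includes Kcnv2 in the inner segment and HCN channels, which open when the cell hyperpolarizes. Nrf2 is a transcription factor that switches on antioxidant genes.

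Values are FPKM, fragments scaled by transcript length and library size, so levels can be compared between genes. The Müller cell genes Glul (3150 ± 840 FPKM in Nrf2 cKO and 3875 ± 825 FPKM in WT) and Rlbp1 (1325 ± 168 FPKM in Nrf2 cKO and 1462 ± 286 FPKM in WT) were abundant (SD, n = 4 each). Rod markers were abundant too, with 12 genes summing to 4034 to 6329 FPKM in Nrf2 cKO and 3819 to 5985 FPKM in WT. Several of the subunits below are known from neurons, and in such bulk samples fewer cells of a type and less RNA per cell cannot be told apart. Nfe2l2, the gene of Nrf2, was at 12.7, 16.5, 14.8 and 10.4 FPKM in Nrf2 cKO replicates 1, 3, 4 and 5, and at 17.5, 18.8, 23.1 and 17.5 FPKM in WT replicates 1, 3, 4 and 5. The groups did not overlap (log2 difference −0.50). Permuting the group labels in all 70 ways gave an exact two-sided p of 0.0286, the lowest that this permutation can reach. It does not keep libraries of equal replicate number together, so it takes no account of a pairing by that number. The adjusted p of Nfe2l2 over all genes in limma was 0.453 without the replicate number as a block and 0.0219 with it. Among the fits that left out 1 pair, it passed 0.05 only without pair 3. Numbers below are given in the order of replicates 1, 3, 4 and 5.

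Most potassium channel subunits did not differ detectably between Nrf2 cKO and WT, while Kcne2, Kcnab2 and Kcnip2 rose in Nrf2 cKO once the replicate number was a block in the fit. Differences are Nrf2 cKO minus WT of log2(FPKM + 0.5), tested with limma with Benjamini-Hochberg adjustment over all 12339 genes at a threshold of 0.05. Without the block 0 of 44 members passed, as did 0 genes overall (0%). In that fit 6 members (13.6%) had an unadjusted p under 0.05, against 10.6% of all genes. With the block 4 members passed, or 9.09% against 10.6% of all genes, so the share of members was near the background. The counts here cover all 44 members, of which 39 are reported here. The 3 higher members stood against 2.99% of all genes that rose, and the 1 lower member against 7.59% that fell. Kcne2 was among the 2 members (4.55%) that also passed in every fit that left out 1 pair, as did 2.63% of all genes. The other 40 of 44 members did not pass with the block. On the log2 scale 28 of the 44 (63.6%) differed by less than 0.2, near the 66.6% of all genes. The median log2 difference was 0.04 over the members and 0.00 over all genes. Differences were positive for 26 members and negative for 18, against 6252 and 6087 of all genes.

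**Figure D1:**
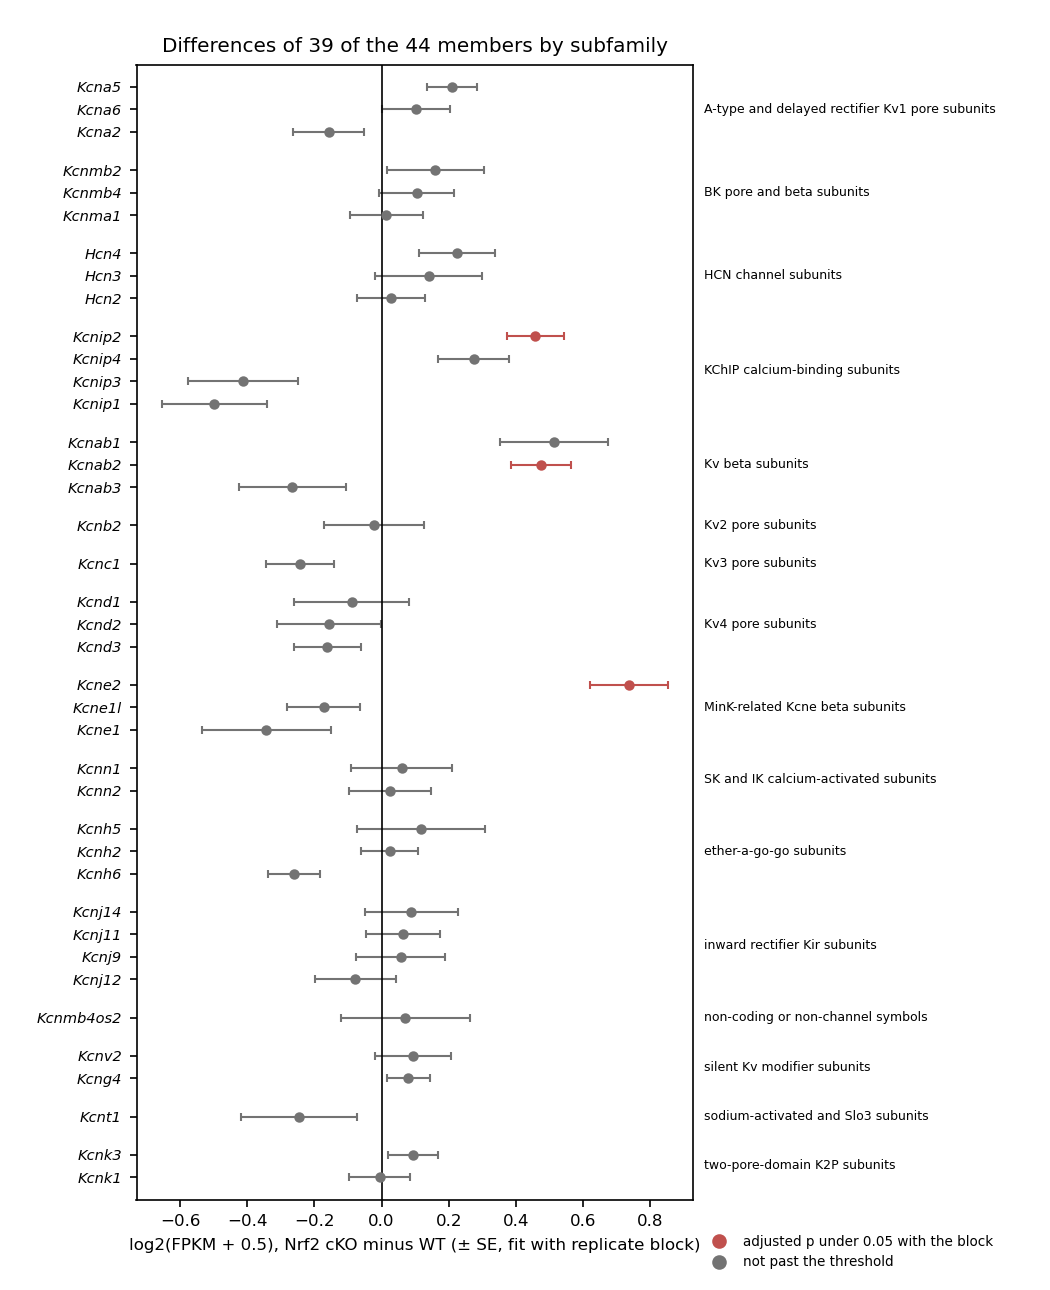
Log2 difference in FPKM + 0.5, Nrf2 cKO minus WT, of 39 of the 44 members (points) with the SE of the fit with the replicate block (bars), grouped by subfamily. Kcne2, Kcnab2 and Kcnip2 stand to the right of 0, in the colour of an adjusted p under 0.05, and the other members drawn are grey.

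The largest rise among the members was in Kcne2 (ENSMUSG00000039672; GRCm38 chromosome 16, 92292389 to 92298129, plus strand). Kcne2 encodes a small protein with a single membrane span that joins the pores of Kcnq1, Kcnh2 and other channels and changes their gating. It was at 54.4, 56.1, 61.4 and 71.7 FPKM in Nrf2 cKO, against 43.5, 30.9, 38.4 and 33.1 FPKM in WT. Each Nrf2 cKO library lay above each WT library. Means were 60.9 ± 7.80 FPKM in Nrf2 cKO and 36.5 ± 5.64 FPKM in WT (SD, n = 4 each), a fold of 1.67 on the log2(FPKM + 0.5) scale. The log2 difference was 0.74 (SE 0.12 with the block, limma adjusted p = 0.00920 with the block and 0.291 without it). The permutation test over all 70 label assignments, exact, two-sided and without the pairing, again gave the lowest p it can reach, 0.0286. Any gene whose groups do not overlap reaches this p, so it adds nothing to the lack of overlap. Within the pairs the log2 difference was 0.32, 0.85, 0.67 and 1.10, and leaving out 1 pair kept the adjusted p of Kcne2 with the block between 0.0171 and 0.0364. The smallest of these differences was in the pair whose WT library had the highest WT value. Of all genes 4.34% had groups that did not overlap, 2.06% with Nrf2 cKO above WT and 2.28% with it below. The members without overlap were Kcne2, Kcnab2 and Kcnip2, all above WT.

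The upstream sequence of the 3 members that rose is shown because the deleted protein is a transcription factor, with the letters of 2 motifs in capitals. The 250 bases before the annotated start of transcription nearest to the 5′ end of the gene were taken from RefSeq on GRCm38.p6, which lists 2 starts for Kcne2, 3 for Kcnab2 and 1 for Kcnip2. Each is printed 5′ to 3′ on the strand of the gene. The Kcnab2 window lies before a RefSeq start but inside the GENCODE span of the gene, whose 5′ end is at 152477871.
Kcne2, chr16:92292139-92292388, plus strand: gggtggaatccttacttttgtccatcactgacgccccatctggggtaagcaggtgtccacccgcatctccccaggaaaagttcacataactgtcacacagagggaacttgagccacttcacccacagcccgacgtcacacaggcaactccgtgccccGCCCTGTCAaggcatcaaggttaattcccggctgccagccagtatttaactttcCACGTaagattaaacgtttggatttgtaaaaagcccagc
Kcnab2, chr4:152477550-152477799, minus strand: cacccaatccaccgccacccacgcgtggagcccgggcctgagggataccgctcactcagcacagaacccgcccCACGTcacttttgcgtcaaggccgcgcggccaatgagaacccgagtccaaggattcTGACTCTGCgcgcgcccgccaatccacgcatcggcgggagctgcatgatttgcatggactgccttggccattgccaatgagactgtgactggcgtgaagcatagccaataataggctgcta
Kcnip2, chr19:45816064-45816313, minus strand: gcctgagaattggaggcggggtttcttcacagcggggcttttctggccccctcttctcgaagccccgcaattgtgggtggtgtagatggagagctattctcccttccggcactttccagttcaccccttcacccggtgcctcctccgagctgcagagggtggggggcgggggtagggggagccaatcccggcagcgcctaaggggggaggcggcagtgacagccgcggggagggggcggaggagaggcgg
The core of the site bound by Nrf2 with small Maf proteins, TGACNNNGC, was searched on both strands. In the capitals above it occurs as GCCCTGTCA, its reverse complement, in Kcne2, and as TGACTCTGC in Kcnab2. RefSeq gives 32851 such windows, of which 10.2% hold this motif, and 28 members have 39 windows, of which 7 (17.9%) hold it. The core of the hypoxia response element, ACGTG, was searched likewise and reads CACGT in both genes. It occurs in 16.6% of all windows and in 7 of the 39 windows of members (17.9%). The matches in these windows do not overlap each other, and a match is a description of letters and not of binding.

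**Figure D2:**
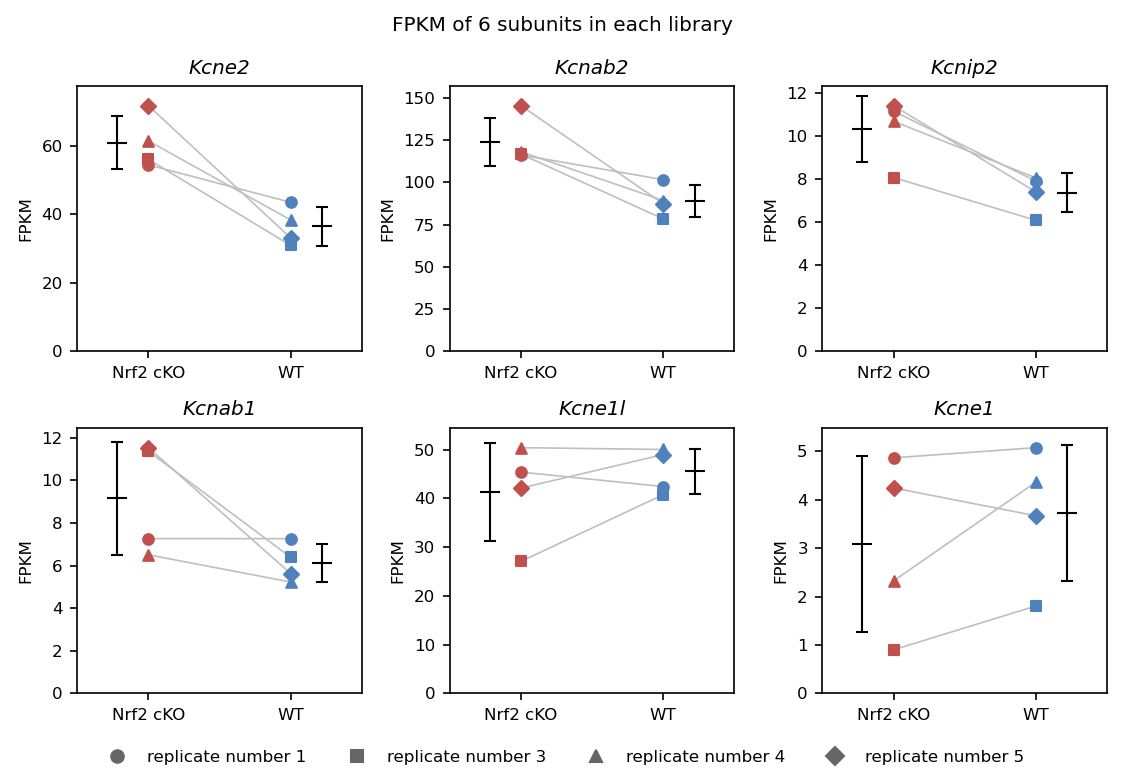
FPKM of Kcne2, Kcnab2, Kcnip2, Kcnab1, Kcne1l and Kcne1 in each of the 8 libraries, with Nrf2 cKO left of WT, a symbol for each replicate number, grey lines between libraries of equal number, and black marks for the mean ± SD. Kcne2, Kcnab2 and Kcnip2 show no overlap between the groups, while Kcnab1, Kcne1l and Kcne1 overlap.

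The other measured Kcne genes did not pass in either fit. Kcne1l, also known as Kcne5, was at 45.4, 27.1, 50.4 and 42.1 FPKM in Nrf2 cKO and at 42.4, 40.8, 50.0 and 49.0 FPKM in WT. Nrf2 cKO replicate 3 was lowest and the groups overlapped (log2 difference −0.17, SE 0.11, limma adjusted p = 0.341 with the block). Kcne1, whose protein slows the Kcnq1 channel of the heart, was low in both groups, at 4.86, 0.901, 2.32 and 4.24 FPKM in Nrf2 cKO and 5.07, 1.80, 4.36 and 3.67 FPKM in WT (−0.34, limma adjusted p = 0.285 with the block). Replicate 3 had its lowest value in both groups.

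The pores that Kcne2 is known to join were measured in part and did not pass. Kcnh2, the pore of the ERG channel, was at 22.4 ± 2.79 FPKM in Nrf2 cKO and 21.9 ± 1.51 FPKM in WT (SD, n = 4 each; limma adjusted p = 0.882 with the block). Of the HCN genes, Hcn2, Hcn3 and Hcn4 had log2 differences of 0.03, 0.14 and 0.22. Hcn4 was at 7.23 ± 1.54 FPKM in Nrf2 cKO and 6.10 ± 1.14 FPKM in WT (limma adjusted p = 0.237 with the block). Hcn2 and Hcn3 were at 10.02 ± 1.94 and 11.0 ± 1.61 FPKM in Nrf2 cKO, and at 9.77 ± 1.61 and 9.98 ± 2.0 FPKM in WT. Kcnh6, a relative of Kcnh2 described after its values were seen, was at 13.4 ± 1.82 FPKM in Nrf2 cKO and 16.1 ± 1.61 FPKM in WT (−0.26, limma adjusted p = 0.0714 with the block), the nearest of the members that missed the threshold.

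Kcnab2 (ENSMUSG00000028931; GRCm38 chromosome 4, 152390742 to 152477871, minus strand) was the most abundant member in both groups. It encodes a cytoplasmic beta subunit of Kv1 channels whose fold is that of an aldo-keto reductase and which binds NADPH. Values were 116, 117, 118 and 145 FPKM in Nrf2 cKO, against 102, 78.3, 89.2 and 87.3 FPKM in WT. The groups did not overlap, and Nrf2 cKO replicate 5 stood above the other Nrf2 cKO libraries. Means were 124 ± 14.2 FPKM in Nrf2 cKO and 89.1 ± 9.57 FPKM in WT (log2 difference 0.47, SE 0.09 with the block, limma adjusted p = 0.0180 with the block and 0.417 without it). Within the pairs the log2 difference was 0.19, 0.57, 0.40 and 0.73. With pair 1 left out the adjusted p of Kcnab2 with the block was 0.0237 and the log2 difference 0.57. The call was lost with pair 3 left out (0.44, adjusted p = 0.0654), with pair 4 left out (0.50, adjusted p = 0.0555) and with pair 5 left out (0.39, adjusted p = 0.0531). An exon of Kcnab2 overlaps one of Gm16334 on the same strand, and reads of the shared bases cannot be assigned to either.

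The other beta subunits of Kv1 channels, described after their values were seen, did not pass. Kcnab1 was at 7.26, 11.4, 6.5 and 11.5 FPKM in Nrf2 cKO and 7.26, 6.39, 5.23 and 5.62 FPKM in WT (log2 difference 0.51, SE 0.16, limma adjusted p = 0.0835 with the block). Its Nrf2 cKO replicates 3 and 5 stood above all WT libraries, while replicate 1 was level with its WT partner. Kcnab3 was at 3.31 ± 0.50 FPKM in Nrf2 cKO and 4.08 ± 0.570 FPKM in WT (−0.27, limma adjusted p = 0.314 with the block). Summed FPKM of the 3 beta subunits was 126 to 160 in Nrf2 cKO and 88.7 to 114 in WT, and Kcnab2 made up most of it. The Kv1 pores they bind, Kcna2, Kcna5 and Kcna6, summed to between 59.1 and 68.8 FPKM in Nrf2 cKO and between 54.4 and 59.8 FPKM in WT. None of these 3 pores passed with the block, and Kcna5, the most abundant, was at 45.9 ± 5.52 FPKM in Nrf2 cKO and 39.6 ± 4.30 FPKM in WT (0.21, limma adjusted p = 0.113 with the block).

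Kcnip2 (ENSMUSG00000025221; GRCm38 chromosome 19, 45791839 to 45816061, minus strand) encodes KChIP2, a calcium-binding protein that attaches to the N-terminus of Kv4 pores and raises their surface density. It was at 11.2, 8.08, 10.7 and 11.4 FPKM in Nrf2 cKO, against 7.92, 6.09, 8.06 and 7.41 FPKM in WT. The lowest Nrf2 cKO library, replicate 3, lay only just above the highest WT library, and replicate 3 was also lowest in WT. Means were 10.3 ± 1.53 FPKM in Nrf2 cKO and 7.37 ± 0.898 FPKM in WT (log2 difference 0.46, SE 0.08 with the block, limma adjusted p = 0.0167 with the block and 0.453 without it). Differences within the pairs were similar, at 0.47, 0.38, 0.39 and 0.59, yet with fewer pairs the adjusted p of Kcnip2 with the block was 0.0748 when pair 1 was left out, 0.0442 for pair 3, 0.0555 for pair 4 and 0.0510 for pair 5.

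The 4 KChIP genes had differences of both signs. The other 3 were described after their values were seen, and none of them passed with the block. Kcnip1 was at 2.96, 2.57, 3.30 and 2.71 FPKM in Nrf2 cKO and 5.46, 4.84, 4.10 and 3.03 FPKM in WT (log2 difference −0.50, limma adjusted p = 0.0832 with the block). It was lower in Nrf2 cKO within all 4 pairs. Kcnip3, also known as calsenilin, was at 2.27 ± 0.269 FPKM in Nrf2 cKO and 3.27 ± 0.905 FPKM in WT (−0.41, limma adjusted p = 0.144 with the block). Kcnip4 was at 9.23 ± 1.70 FPKM in Nrf2 cKO and 7.5 ± 0.865 FPKM in WT (0.27, limma adjusted p = 0.134 with the block). All 4 KChIP genes had an unadjusted p under 0.05 with the block, as did 11 of the 44 members, or 25%, against 28.4% of all genes. The summed FPKM of the 4 was 24.7 ± 2.69 in Nrf2 cKO and 22.5 ± 1.26 in WT. Their partners Kcnd1, Kcnd2 and Kcnd3, the Kv4 pores, were low, with log2 differences between −0.16 and −0.09 that did not pass. Kcnd3, the most abundant, was at 8.71 ± 1.41 FPKM in Nrf2 cKO and 9.83 ± 1.92 FPKM in WT (limma adjusted p = 0.333 with the block).

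The 2 measured silent Kv subunits, which form channels only together with Kv2 pores, were abundant and did not pass. The other 8 of the 10 annotated ones were not analysed here. Kcnv2, whose human gene is mutated in a cone dystrophy, was at 51.7 ± 11.0 FPKM in Nrf2 cKO and 48.6 ± 11.4 FPKM in WT (0.09, limma adjusted p = 0.631 with the block). Kcng4, another silent subunit, was at 45.2 ± 4.10 FPKM in Nrf2 cKO and 42.9 ± 5.65 FPKM in WT (limma adjusted p = 0.455 with the block).

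Inward rectifiers and two-pore-domain channels, which carry background potassium current, showed small differences. The 4 inward rectifiers Kcnj9, Kcnj11, Kcnj12 and Kcnj14 had log2 differences from −0.08 to 0.09. The most abundant, Kcnj14, was at 14.7 ± 1.57 FPKM in Nrf2 cKO and 14.3 ± 4.26 FPKM in WT (limma adjusted p = 0.715 with the block). Kcnj10, the main inward rectifier of Müller cells and not counted among the members, was at 48.4 ± 9.25 FPKM in Nrf2 cKO and 51.8 ± 8.61 FPKM in WT (−0.10, limma adjusted p = 0.390 with the block). The leak channels Kcnk1 and Kcnk3 were at 28.9 ± 5.71 and 27.4 ± 3.30 FPKM in Nrf2 cKO, and at 28.8 ± 3.76 and 25.6 ± 2.75 FPKM in WT. Neither passed with the block.

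Channels gated by calcium or sodium inside the cell also did not pass. Kcnma1, the pore of the large-conductance BK channel, was at 33.2 ± 5.45 FPKM in Nrf2 cKO and 33.4 ± 8.54 FPKM in WT (limma adjusted p = 0.946 with the block). Its subunit Kcnmb4 was at 26.7 ± 5.35 FPKM in Nrf2 cKO and 24.5 ± 2.82 FPKM in WT, and the antisense RNA Kcnmb4os2 at 2.53 ± 0.760 FPKM in Nrf2 cKO and 2.35 ± 0.604 FPKM in WT. The libraries were directional, but whether counting used the strand is not given in the sources used here, so reads from the exonic bases that Kcnmb4 and Kcnmb4os2 share on opposite strands cannot be told apart. In all, 17 of the 44 members share exonic bases with another annotated gene, while Kcne2 and Kcnip2 do not. Kcnn1, of the small-conductance channels, was at 5.97 ± 1.43 FPKM in Nrf2 cKO and 5.65 ± 0.982 FPKM in WT. Kcnt1, a sodium-activated pore, was at 1.93 ± 0.682 FPKM in Nrf2 cKO and 2.52 ± 1.31 FPKM in WT, with replicates 1 and 3 above 4 and 5 in both groups (limma adjusted p = 0.394 with the block).

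Grouped by role, a division made after the values were seen, 3 of 12 auxiliary subunits rose with the block, 0 fell and 9 did not pass, with a median log2 difference of 0.13. Of 31 pore-forming or silent subunits 0 rose, 1 fell and 30 did not pass, with a median of 0.02. The 3 rises are those of Kcne2, Kcnab2 and Kcnip2 given above, so the division repeats their calls. Of the 12 auxiliary subunits 7 had positive differences. Over all genes 2.99% rose with the block and 7.59% fell. The difference between these roles was not tested.

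Mean levels spanned from 1.91 FPKM for Kcnd2 to 124 FPKM for Kcnab2 in Nrf2 cKO, and from 2.09 FPKM for Kcnd1 to 89.1 FPKM for Kcnab2 in WT. Among all 44 members Kcne2 stood at rank 2 in Nrf2 cKO and rank 7 in WT. Kcnv2 stood at rank 4 in Nrf2 cKO and rank 3 in WT, and the Nrf2 cKO mean of Kcne2, 60.9 ± 7.80 FPKM, and that of Kcnv2, 51.7 ± 11.0 FPKM, lay within their spread of each other. The 44 members together summed to 796, 754, 780 and 871 FPKM in Nrf2 cKO and 795, 732, 686 and 720 FPKM in WT. In pair 1 these sums were nearly equal.

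**Figure D3:**
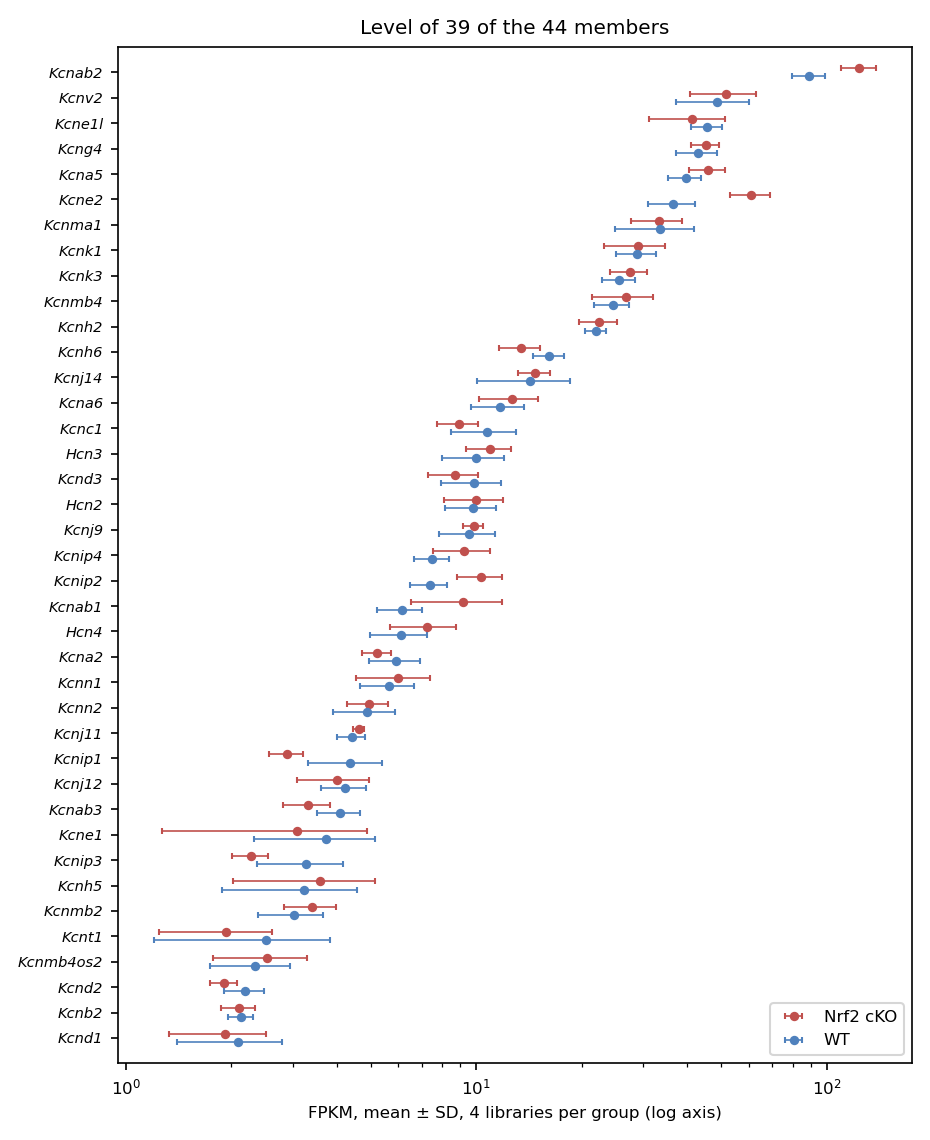
Mean FPKM ± SD (log axis, 4 libraries per group) of 39 of the 44 members in Nrf2 cKO and WT, ordered by the WT mean. Kcne2, at 60.9 against 36.5 FPKM, and Kcnab2 lie right of their WT values, while most other bars overlap.

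Members varied with the replicate number as well as with genotype. After the mean of each group was removed, the correlation across the 44 members between the Nrf2 cKO and the WT library of equal number was 0.12 for number 1, 0.80 for number 3, 0.71 for number 4 and 0.45 for number 5. These are correlations across genes, which are not independent replicates. Between numbers 3 and 4, 20 members were higher in replicate 3 in both groups, 16 were higher in replicate 4 in both groups and 8 differed in order. This was the highest share of equal order among the 6 pairs of numbers, 81.8% of members against 74.0% of all genes. The lowest was that of numbers 1 and 5, 43.2% of members against 59.6% of all genes, and numbers 1 and 3 gave 50% against 66%. Kcnh5, Kcnt1 and Kcnma1 were higher in replicate 3, and Kcne1, Kcne1l, Hcn2 and Kcnmb4 in replicate 4. What the numbers mark is not given in the sources used here. Of the members, 6 were higher in Nrf2 cKO in all 4 pairs, among them Kcne2, Kcnab1, Kcnab2, Kcnip2 and Kcna5, and 3 were lower, among them Kcnip1 and Kcnh6, together 9 of 44 members (20.5%) against 36.2% of all genes.

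**Figure D4:**
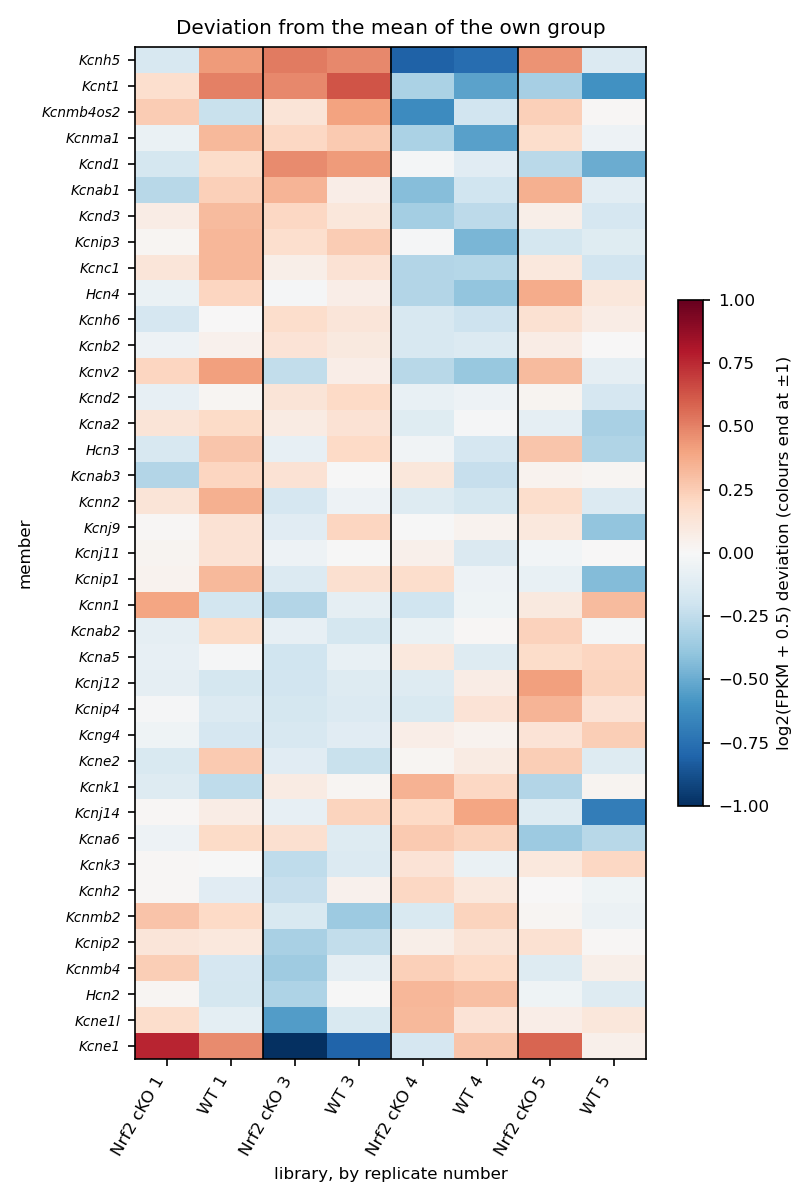
Deviation of log2(FPKM + 0.5) from the mean of the own group for 39 of the 44 members (rows) in the 8 libraries (columns, ordered by replicate number with Nrf2 cKO left of WT). Within number 3 and within number 4 the columns carry the same colours for most members, with correlations over all 44 members of 0.80 and 0.71.

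Markers of retinal neurons moved in both directions beside these genes. Their counts stand beside 2.99% of all genes that rose with the block and 7.59% that fell, and no marker passed without it. Of 12 bipolar cell markers 6 rose with the block, 0 fell and 6 did not pass. Their summed FPKM was 2795 to 3582 in Nrf2 cKO and 2258 to 2907 in WT, above the WT library of equal number in each pair. The summed astrocyte and pericyte markers were likewise higher in Nrf2 cKO in each pair, but this did not hold for each marker. Pdgfrb of the pericyte list was higher in 0 pairs (log2 difference −0.25). Aldoc, the most abundant astrocyte marker, was higher in 2 pairs, at 463 ± 98.4 FPKM in Nrf2 cKO and 454 ± 91.4 FPKM in WT. Taken singly, 2060 of all 12339 genes were higher in all 4 pairs. Of 8 measured amacrine cell markers 4 fell and 4 did not pass, with sums of 173 to 215 FPKM in Nrf2 cKO and 223 to 254 FPKM in WT. Of 10 measured ganglion cell markers 4 fell and 6 did not pass, with sums of 74.3 to 98.5 FPKM in Nrf2 cKO and 98.6 to 122 FPKM in WT. Of 9 measured cone markers 1 rose and 4 fell, of 12 rod markers 1 rose, of 15 Müller cell markers 2 fell and of 7 measured astrocyte markers 2 rose. Pericyte markers were represented by 2 of 8 genes, of which Rgs5 rose, with sums of 46.8 to 59.4 FPKM in Nrf2 cKO and 31.0 to 40.1 FPKM in WT. Microglia were represented by 1 of 10, pigment epithelium by 2 of 12, endothelium by 4 of 10, ciliary epithelium by 5 of 10 and horizontal cells by 2 of 6, of which none passed. None of the measured markers was at 0 in any library. Rpe65 of pigment epithelium and Pecam1 of endothelium, among the defining genes of these cells, were not among the genes analysed here. The part of these cell types in the differences of Kcne2, Kcnab2 and Kcnip2 was not tested.

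Partners of potassium channels were counted over whole lists of genes, beside 2.99% of all genes that rose with the block and 7.59% that fell. No partner gene passed without the block. Of 16 potassium and chloride pumps and cotransporters 0 rose, 3 fell and 13 did not pass with the block, and the median log2 difference was −0.10. Among the 3 that fell were the potassium-chloride cotransporter gene Slc12a7 and the related Slc12a9. Each of these passed in 1 of the 4 fits with the block that left out 1 pair. Of 21 measured auxiliary proteins and scaffolds 1 rose, 5 fell and 15 did not pass, with a median of −0.03. Pex5l, which controls the trafficking of HCN channels, fell to 51.2 ± 15.2 FPKM in Nrf2 cKO, against 83.3 ± 25.0 FPKM in WT (log2 difference −0.70, limma adjusted p = 0.00191 with the block). Abcc8, the sulfonylurea receptor that partners Kcnj11, fell to 5.09 ± 0.787 FPKM in Nrf2 cKO, against 7.02 ± 1.23 FPKM in WT (−0.42, limma adjusted p = 0.0293 with the block). Kcnj11 itself was at 4.62 ± 0.173 FPKM in Nrf2 cKO and 4.41 ± 0.396 FPKM in WT. Adam22 (−0.42), Adam23 (−0.35) and Dlg1 (−0.25) were the other falls and Vapa (0.24) the rise. In the fits with the block that left out 1 pair, Abcc8, Adam23, Dlg1 and Vapa passed in 0 of 4 and Adam22 in 2, while Pex5l passed in all 4. With quantile scaling and the block Abcc8 (adjusted p = 0.0540), Dlg1 (0.0751), Vapa (0.0736) and Slc12a7 (0.0563) did not pass.

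Several pore subunits of voltage-gated calcium channels fell with the block, and none passed without it. Over all genes 2.99% rose with the block and 7.59% fell. Of 18 measured genes of the calcium and nonselective cation channel list 1 rose, 7 fell and 10 did not pass with the block, with a median log2 difference of −0.10. Cacna1f, the calcium channel pore of photoreceptor synapses, fell to 24.7 ± 10.6 FPKM in Nrf2 cKO, against 41.6 ± 17.3 FPKM in WT (−0.74, limma adjusted p = 0.00360 with the block). Cacna1g fell to 17.7 ± 3.63 FPKM in Nrf2 cKO, against 30.6 ± 5.22 FPKM in WT (−0.78, limma adjusted p = 0.00256 with the block). Cacna1f and Cacna1g passed in all 4 fits with the block that left out 1 pair. Cacna1a (−0.72), Cacna1d (−0.57), Cacna1h (−0.64) and Cacna2d2 (−0.65) also fell with the block. Each of these passed in 3 of the 4 fits and lost the call without pair 1. Of 7 measured sodium channel subunits Scn8a fell (−0.60, limma adjusted p = 0.0249 with the block) and 6 did not pass. Scn8a passed in 2 of the 4 fits that left out 1 pair. Of 18 measured Nrf2 target genes 0 passed in either fit, with a median of 0.04.

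**Figure D5:**
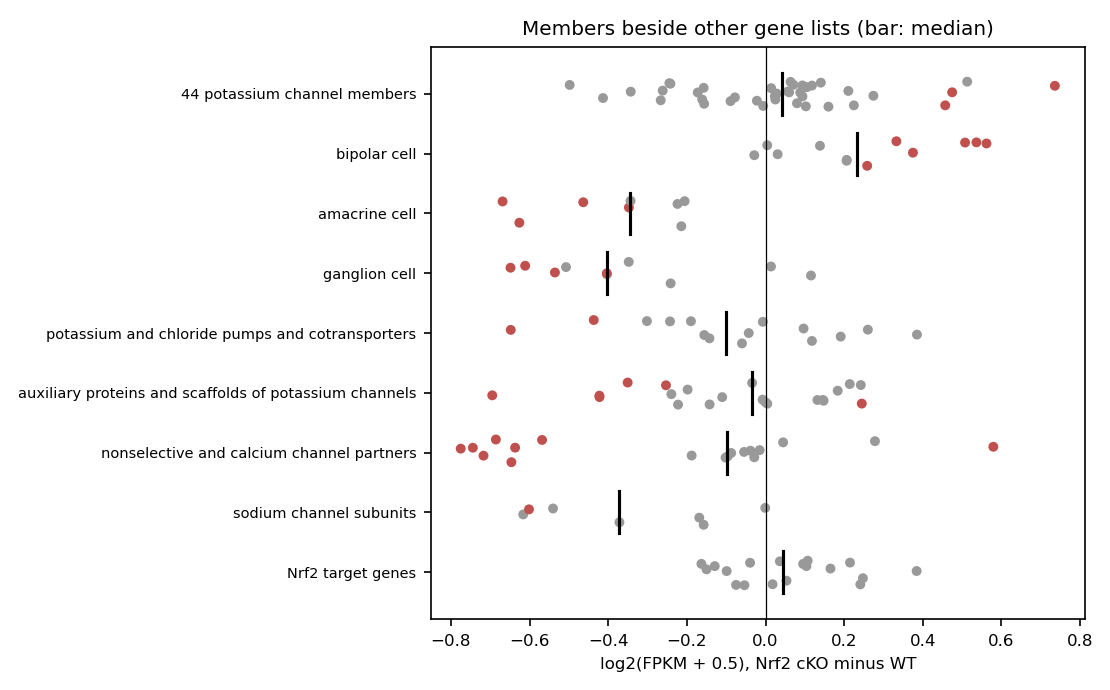
Log2 difference, Nrf2 cKO minus WT, of 39 of the 44 members and of the reported genes of 8 other lists (points), with the median of each whole list as a black bar and genes past the threshold with the block in red. The members spread on both sides of 0 around a median of 0.04, while the amacrine and ganglion cell lists lie mostly left of 0 and the bipolar cell list mostly right of it.

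Transcript length moved with the differences over all genes, and the cause was not tested. Genes with exons of more than 4221 bases in total, the median of the members, had a median log2 difference of −0.05, and shorter ones 0.07. Among the 22 longer members it was −0.0039 and among the 22 shorter ones 0.08. The exons of Kcnab2 span 5578 bases in total, those of Kcnip2 3476 and those of Kcne2 1767. With a correction for length in each library and the block, Kcne2 differed by 0.66 (limma adjusted p = 0.0324), and Kcnab2 (0.52, adjusted p = 0.0166) and Kcnip2 (0.45, adjusted p = 0.0229) passed as well. In that fit 3 of the 21 auxiliary proteins and scaffolds passed, against 6 with the block alone. Among the partner genes, the call was lost for Abcc8 (−0.33, adjusted p = 0.0717), Adam22 (−0.22, 0.0936), Adam23 (−0.09, 0.503) and Dlg1 (−0.11, 0.268). It was also lost for Scn8a (−0.37, 0.115), Slc12a7 (−0.47, 0.0808) and Cacna1a (−0.56, 0.0545). The call was kept for Pex5l (−0.58, 0.00403), Slc12a9 (−0.40, 0.0308) and Vapa (0.23, 0.0361). Of the calcium channel genes it was kept for Cacna1f (−0.63, 0.0103), Cacna1g (−0.64, 0.00594), Cacna1d (−0.39, 0.0370), Cacna1h (−0.51, 0.0324) and Cacna2d2 (−0.55, 0.0194).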

How the data were processed

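The authors deposited FPKM for 8 libraries and 12339 genes; the unit follows from the name and values of the table. Per the submitters' processing notes STAR, edgeR, GRCm38 and mm10 were used, without role or version. The counting tool, its strand setting, the gene filter and the number of fragments are not given in the sources used here, so no counting interval was computed. Per the labels, poly(A) RNA was selected and the library kit was directional. Each gene had a mean FPKM above 2, which limits what could be examined. Every member ID and symbol matched GENCODE mouse release 21 (GRCm38).

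Differences in log2(FPKM + 0.5) were fitted by limma 3.58.1 under R 4.3.3 (eBayes with a trend, two-sided, Benjamini-Hochberg adjustment over 12339 genes, threshold 0.05), after a test on simulated data. The same replicate numbers occur in both groups. Deviations from the group means correlated across all genes by 0.261 to 0.591 between libraries of equal number, above 0.1 in every pair. Libraries of unequal number gave −0.479 to 0.211, so the 0.261 of number 1 was only slightly above the highest of these. The numbers were taken to pair the libraries, from the data and not from the labels. The fit with the number as a block left 3 residual degrees of freedom, against 6 without it. Permutation tests used scipy 1.17.1. The members and lists were chosen with earlier results of these data known. The rule for named members took the Kcne genes, those past the threshold in either fit or without overlap, the most abundant of each subfamily, Kcnh2 and the HCN genes, and from each partner list up to 6 genes past the threshold by smallest p; exceptions are named as such, and some genes that the rule takes are not reported here. Pseudocount, filter, scaling, trend, block and left-out libraries were varied as planned, and the block combined with other pseudocounts, a filter, scalings or a length correction was added after seeing the data.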

Additional observations from a re-analysis of the deposited data

Results flagged for a closer look

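Kcnab2 in Nrf2 cKO replicate 5 was at 145 FPKM, while the other Nrf2 cKO libraries were at 116 to 118 FPKM, a gap wider than Dixon's 95% criterion for 4 values allows. In all, 48 groups of 4 values were examined, and chance alone marks about 1 in 20.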

How the results depend on the processing

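Without the replicate block, 0 genes and 0 members passed under each other setting run (pseudocounts of 0.1 and 1, quantile, TPM (equal sums) or median-of-ratios scaling, a mean FPKM of at least 5, eBayes without a trend, and each library left out), with 609 to 2227 genes at an unadjusted p under 0.05 in limma. With the replicate block 1305 genes passed, and 4 members. Added to the block, quantile scaling gave 1064 genes, pseudocount 0.1 gave 1285, pseudocount 1 gave 1320, the minimum of 5 gave 1276, median-of-ratios 1300, TPM scaling 1350 and length correction 923. The same 4 members, Kcnab2, Kcne2 and Kcnip2 among them, passed in each of these. Leaving out 1 pair gave 402 (pair 1), 606 (pair 3), 524 (pair 4) and 821 (pair 5) genes, and 3, 3, 2 and 2 members. The Kcne2 difference passed with the block at 0.74 (also with pseudocount 0.1 and the minimum of 5), 0.73 with pseudocount 1 and median-of-ratios, 0.72 with quantile, 0.70 with TPM and 0.66 with length correction, and at 0.87, 0.70, 0.76 and 0.61 without pairs 1, 3, 4 and 5. The Nfe2l2 difference passed with the block at −0.50 (also the minimum of 5 and median-of-ratios), −0.51 and −0.48 with pseudocounts 0.1 and 1, −0.46 with quantile, −0.53 with TPM, −0.49 with length correction and −0.60 without pair 3.

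Among members that never passed, the log2 difference of some turned sign, and the cause was not tested. It was −0.0030 for Hcn2, −0.0086 for Kcnh2, −0.018 for Kcnma1 with TPM scaling, and 0.0056 for Kcnk1 with quantile scaling, both of these with or without the block. With pair 1 left out of the fit with the block it was −0.037 for Hcn2, −0.018 for Kcnh2, −0.088 for Kcnmb4os2, −0.13 for Kcnn1. With pair 4 left out of the fit with the block it was −0.0096 for Kcnh2, −0.061 for Kcnma1. With pair 5 left out of the fit with the block it was −0.053 for Hcn3, −0.10 for Kcnj14, 0.10 for Kcnk1, −0.060 for Kcnma1, −0.0057 for Kcnmb4os2, −0.042 for Kcnv2. Over the fits that left out 1 library it ran from −0.082 to 0.13 for Hcn2, −0.61 to 0.049 for Kcne1, −0.28 to 0.015 for Kcne1l, −0.046 to 0.099 for Kcnh2, −0.14 to 0.22 for Kcnj14, −0.12 to 0.092 for Kcnk1, −0.17 to 0.12 for Kcnma1, −0.014 to 0.28 for Kcnmb4os2, −0.071 to 0.16 for Kcnn1, −0.033 to 0.23 for Kcnv2. The median of all genes moved by less than 0.1 under every setting. The number of fragments per library is unknown, so the counting error of low members such as Kcne1 cannot be given. Genes with a mean under about 2 FPKM were not analysed here, and with 4 libraries a group a p that misses the threshold does not show that values were alike.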

Other observations

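Smim11, the next gene downstream of Kcne2 on the same strand, chosen after its values were seen, was at 35.5, 30.6, 38.6 and 37.6 FPKM in Nrf2 cKO and 26, 27.8, 30.2 and 32.3 FPKM in WT (log2 difference 0.29, limma adjusted p = 0.0444 with the block). It passed in 0 of the 4 fits that left out 1 pair, and with length correction the difference of Smim11 was 0.20 (limma adjusted p = 0.0993). The ratio of Kcne2 to Kcnh2 was 2.43, 2.96, 2.38 and 3.21 in Nrf2 cKO and 2.16, 1.37, 1.62 and 1.56 in WT, with no overlap between the groups. Kcnh2 differed by only 0.02 on the log2 scale, so the ratio mostly repeats the Kcne2 values and is not a separate result.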
